A study of Mus musculus with 7899 samples.

Results

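The antioxidant genes described here are 9 enzymes that remove reactive oxygen species or recharge those that do, together with Nfe2l2, the gene of a transcription factor of the same defence. They were taken by symbol from the read count tables of mouse pancreatic β cells: Gpx1, Gpx3, Gpx4, Prdx1, Prdx4, Txnrd1, Sod1, Sod2, Cat and Nfe2l2, which are 10 of the 21767 genes in the largest table. All 10 passed the filter on low counts in the 6 tables that list them in full, and the Stat3 table lists 8 of them, without Gpx1 and Gpx4.

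Superoxide dismutases turn superoxide into hydrogen peroxide, Sod1 mainly in the cytosol and Sod2 in the mitochondria. Hydrogen peroxide is then removed by catalase (Cat) in peroxisomes, by the glutathione peroxidases and by the peroxiredoxins. Gpx1 works in cytosol and mitochondria, Gpx3 is a secreted form, and Gpx4 reduces lipid peroxides in membranes. Prdx1 is a cytosolic peroxiredoxin and Prdx4 one of the endoplasmic reticulum, where proinsulin is folded. Txnrd1 is the cytosolic reductase that recharges thioredoxin with NADPH. Nfe2l2 encodes Nrf2, which is held by Keap1 and degraded until oxidants or electrophiles release it, so that its activity is set mainly at the protein level. Islet β cells are known for low catalase and glutathione peroxidase levels next to liver.

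The study sequenced single sorted β cells of female C57BL/6J mice by Smart-seq3xpress, a plate method that reads whole transcripts. Summing cells by group and replicate gave 100 libraries from 7897 cells in 48 groups, 44 of them with 2 libraries and 4 with 3. The time course, on standard diet, held mice before gestation (G0), at 9 stages of gestation numbered by day (early G3.5, G5.5 and G6.5, then G8.5, G10.5 and G12.5, and late G14.5, G16.5 and G18.5), and at days 2, 7 and 14 after delivery, the last in groups that the labels mark L or NL without spelling these out (P2L to P14NL). Acss2 knockout and wild-type mice (Acss2KO, Acss2WT) were sampled at G0, G14.5 and G18.5, as were Stat3 knockout and wild-type mice, and p300 knockout and wild-type mice at G0 and G14.5. The sources used here do not give what drives these deletions or the age of the mice. High-fat diet (HFD) groups without a named genotype were taken at G0, G14.5 and P7NL, and HFD Acss2WT and Acss2KO groups at G0 and G14.5, beside Acss2WT mice at G14.5 on standard diet (SD). Islets were also cultured for 4 days in medium with 20% human normal serum (NS) or maternal serum (MS), with 5 µM A485, an inhibitor of the acetyltransferases p300 and CBP, with 20 µM nifuroxazide (Nif), a nitrofuran that inhibits STAT3 signalling, or with the vehicle DMSO (groups ending in Ctrl). Nothing in the labels says whether replicates were separate animals, so p-values measure the spread between libraries, which may be in part technical.

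Nrf2 binds the antioxidant response element, whose core TGACNNNGC was searched on both strands in the 250 bases before each RefSeq start site of build GRCm38.p6. A match was found in 4 of the 10 genes, against 11.5% of the 27025 genes and 10.2% of the 32851 windows in the same table. Txnrd1 had 3 windows, of which 1 matched, and Gpx4 had 4, so the shares per gene are not like for like. Gpx1, Gpx3, Gpx4, Prdx4, Sod2 and Cat had no match. Each line gives 80 bases, 5′ to 3′ along the gene's strand, with the match in capitals, shown because Prdx1, Sod1 and Txnrd1 are among the genes called below and Nfe2l2 encodes the factor itself.
Prdx1, chr4:116685431-116685510, plus strand, upstream of the gene: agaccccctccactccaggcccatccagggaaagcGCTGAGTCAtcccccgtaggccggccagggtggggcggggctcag
Sod1, chr16:90220671-90220750, plus strand, upstream of the gene: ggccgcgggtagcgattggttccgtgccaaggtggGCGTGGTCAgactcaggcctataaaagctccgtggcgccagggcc
Txnrd1, chr10:82859079-82859158, plus strand, inside the gene before an internal start: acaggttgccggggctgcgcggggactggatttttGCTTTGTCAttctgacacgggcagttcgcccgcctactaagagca
Nfe2l2, chr2:75704834-75704913, minus strand, upstream of the gene: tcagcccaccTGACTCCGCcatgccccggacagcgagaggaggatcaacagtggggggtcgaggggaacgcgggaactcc
The match lay 56 to 48 bases before the start in Sod1, 92 to 84 in Txnrd1 and 240 to 232 in Nfe2l2, and is marked likewise in Prdx1. A match describes letters only, and no binding was measured. In the GENCODE annotation of this build the genes of most weight below lie at chr11:54902453-54910377 (Gpx3, ENSMUSG00000018339, plus strand), chr9:108338903-108340343 (Gpx1, ENSMUSG00000063856, plus strand), chr4:116685544-116700822 (Prdx1, ENSMUSG00000028691, plus strand), chr10:82833951-82897712 (Txnrd1, ENSMUSG00000020250, plus strand) and chr2:103453849-103485160 (Cat, ENSMUSG00000027187, minus strand).

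Depth ran from 13273435 to 181405413 reads per library and from 21 to 160 cells, and insulin reads were 33% to 69.8% of each library. Reads lack molecular identifiers here and so do not count molecules, and no cell shared its counts over the genes compared with another cell. The 8 β markers, which include Ins1 and Ins2, summed to between 384300 and 729200 CPM (reads scaled to a common library size) in every library. Acinar markers summed to at most 7.92 CPM in the time course, 18.6 in the Acss2 table, 13.4 in the Stat3 table, 11.8 in the p300 table, 261 in the high-fat diet table, 1.88 in the A485 cultures and 2.24 in the nifuroxazide cultures. Endothelial markers reached at most 9.57 CPM and stromal markers at most 2.46 CPM in any table. Alpha cell genes reached 3420 CPM in the time course and 7375 CPM in the high-fat diet table, and delta cell genes 3858 CPM in the time course. PP cell genes (Ppy and Pyy) reached 2121 CPM in the time course and 2383 CPM in the Acss2 table. Ductal markers summed to 103.7 to 292 CPM in the time course, 283 to 627 CPM in the A485 cultures and 454 to 1056 CPM in the nifuroxazide cultures. Within each stage on standard diet, each knocked-out gene was lower in knockout than in wild-type libraries without overlap, except Stat3 at G0 (knockout 66.1 and 49.4, wild type 65.9 and 70.8 CPM). Reads of the gene remained in every knockout library. Stat3 lay at 67.4 and 73.7 CPM in knockouts and 80.3 and 90.2 in wild types at G14.5. At G18.5 it lay at 60.7 and 67.5 CPM in knockouts and 78.3 and 86.5 in wild types.

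Levels between genes can be set side by side only per length. On the authors' normalized scale, which is per gene length, Sod1 led at G0 with a mean of 219, followed by Gpx4 (80.4), Gpx3 (34.7), Prdx1 (33.2), Gpx1 (32.8), Sod2 (17.7), Prdx4 (7.67), Txnrd1 (6.87), Nfe2l2 (3.05) and Cat (0.188). Gpx3, Prdx1 and Gpx1 cannot be placed in order, since the G0 libraries of Gpx3 lay at 19.2 and 50.1. Prdx4 and Txnrd1 also lay close, Prdx4 at 6.68 and 8.67 and Txnrd1 at 6.73 and 7.01. All other levels below are CPM, scaled by TMM, which compare 1 gene across libraries. Each table of libraries was scaled and fitted on its own.

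**Figure D1:**
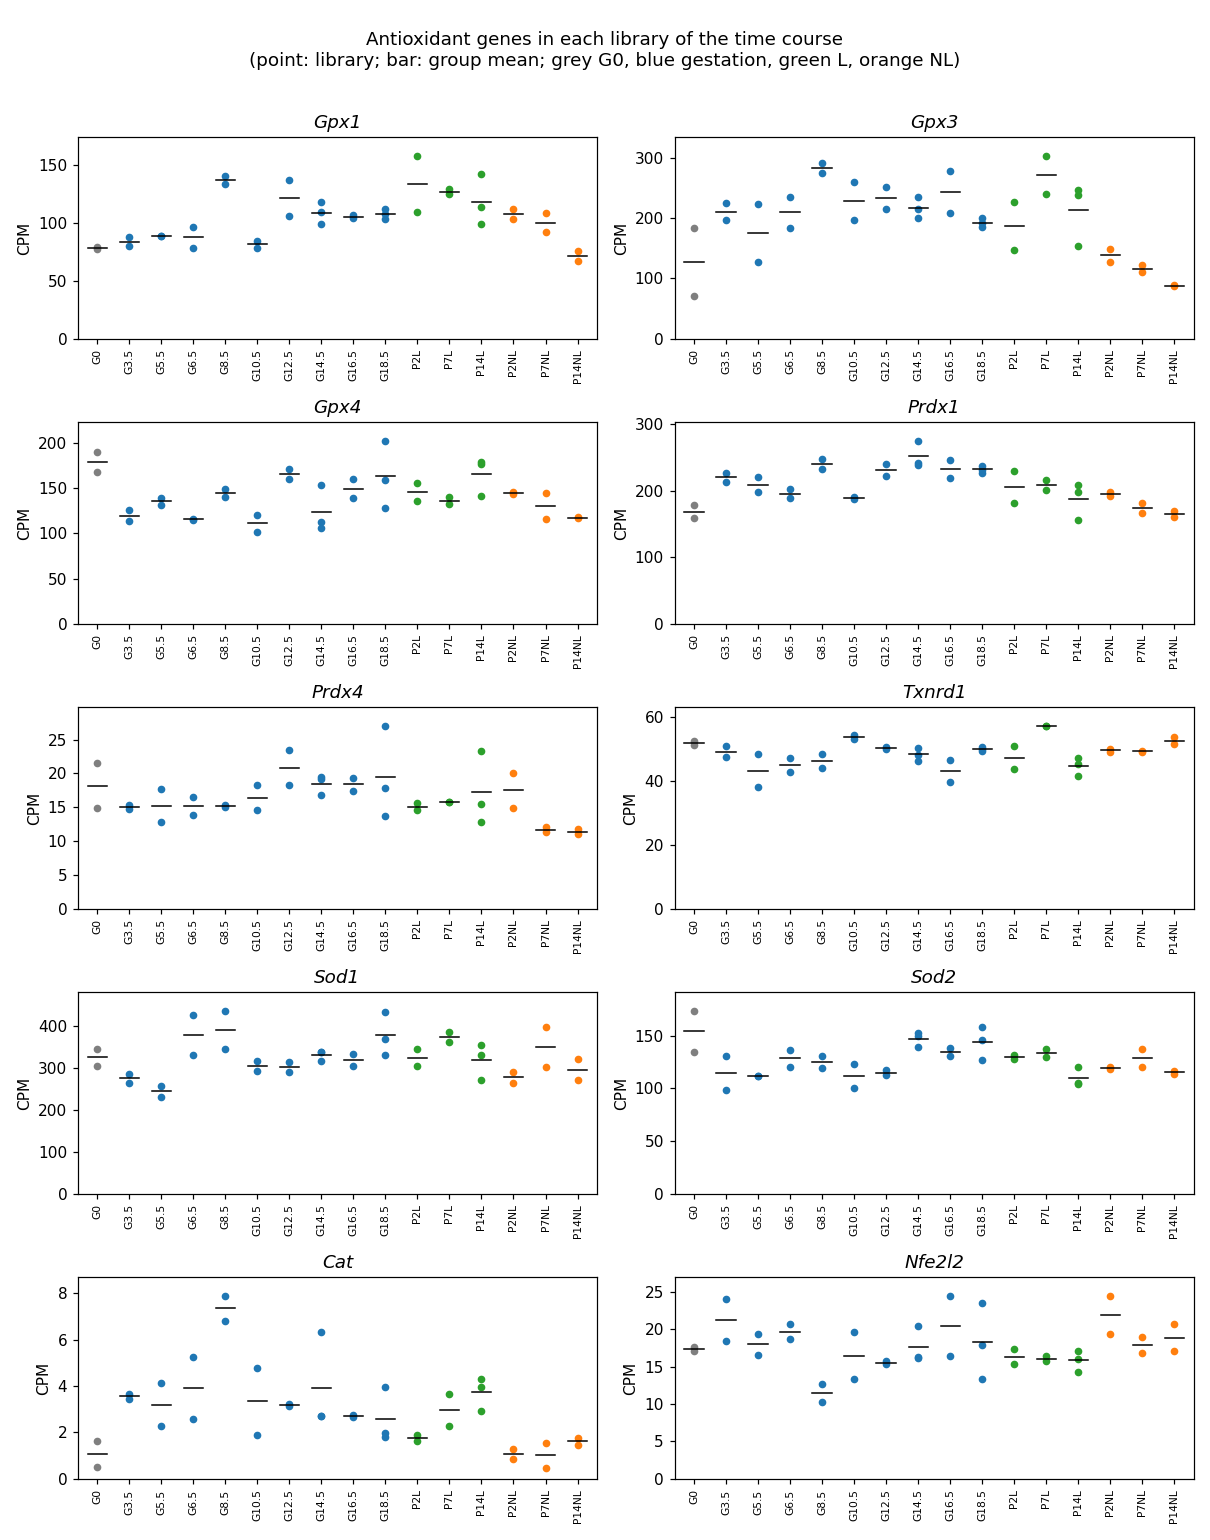
Level of each gene (CPM) in each of the 35 libraries of the time course, by group, on linear axes from 0. Points are libraries and bars are group means. Gpx3 spans 70.5 to 304 CPM and Cat 0.465 to 7.91 CPM, while Txnrd1 stays between 38 and 57.3 CPM.

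Over the time course, Gpx3 spanned 4.31-fold between its lowest and highest library and Cat 16.99-fold, whereas Txnrd1 spanned 1.51-fold, Sod2 1.76-fold, Prdx1 1.77-fold, Sod1 1.89-fold and Gpx4 1.99-fold. A comparison was called where the adjusted p of edgeR's quasi-likelihood test, over all genes of the table, was under 0.05. Of the 180 member values in the 18 comparisons of the time course, 22 were called: Gpx1 7, Prdx1 5, Gpx3 5, Cat 2, Gpx4 2 and Sod2 1. In single comparisons, the share of all genes called ran from 0.124% (P2L minus P2NL) to 10.1% (G14.5 minus G0). Sod1, Prdx4, Txnrd1 and Nfe2l2 were called in none. All comparisons with G0 use the same 2 G0 libraries, so their calls are not independent of each other.

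At G3.5, 0 of 10 genes were called by edgeR, where 0.579% of all 15373 genes tested were called. Unadjusted p was under 0.05 for 5 of them and for 1815 of all 15373 genes, and DESeq2 called 1 (Gpx4) and limma 0. The shares of all genes called by DESeq2 and limma, here and below, are not given. G5.5 and G6.5 also gave 0 calls by edgeR, against 1.57% and 1.65% of all genes. There 6 and 3 of the 10 genes had an unadjusted p under 0.05, beside 2225 and 2020 of all 15373. DESeq2 called Sod2 and Gpx4 respectively, and limma called Sod2 and Txnrd1 at G5.5 and 0 at G6.5. At G8.5, 4 of 10 were called, all higher than at G0, against 5.79% of all genes: Gpx1, Gpx3, Prdx1 and Cat. G10.5 gave 1 call (Gpx4, lower) against 2.76%, and G12.5 gave 2 (Gpx1 and Prdx1, higher) against 5.03%. At G14.5, 4 were called (Gpx1, Prdx1 and Cat higher, Gpx4 lower) against 10.1% of all genes. G16.5 gave 2 (Gpx3 and Prdx1, higher) against 7.25%, and G18.5 gave 1 (Prdx1, higher) against 4.77%. The median log2 fold change of the 10 genes at G14.5 was 0.03, beside 0.01 over all genes tested.

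Gpx1, the glutathione peroxidase of cytosol and mitochondria, lay at 79.4 and 77.3 CPM in the G0 libraries. At G8.5 it lay at 141.03 and 133.6 CPM, at G12.5 at 105.8 and 136.9, and at G14.5 at 98.7, 118.03 and 109.8 CPM. Each of these libraries was above both G0 libraries. Its log2 fold change was 0.81 (SE 0.16, adjusted p = 0.00184) at G8.5, 0.63 (SE 0.16, adjusted p = 0.016) at G12.5 and 0.47 (SE 0.15, adjusted p = 0.0345) at G14.5. G3.5, G5.5, G6.5 and G10.5 gave libraries between 78.4 and 96.7 CPM, of which G6.5 and G10.5 overlapped with G0, and were not called. At G16.5 and G18.5 the 5 libraries lay between 103.7 and 112.3 CPM, all above G0, with log2 fold changes of 0.43 and 0.46 that edgeR did not call (adjusted p = 0.102 and 0.065), while DESeq2 called G18.5. The G8.5 call held under each of 7 other settings and without each library in turn. The G12.5 call ended without G0 replicate 1 (adjusted p = 0.0668), G0 replicate 2 (0.127) or G12.5 replicate 2 (0.276). The G14.5 call ended without G0 replicate 1 (0.127), G0 replicate 2 (0.18), G14.5 replicate 2 (0.0837) or G14.5 replicate 3 (0.084), and with the replicate number as a block (0.0625). Over all alternatives the adjusted p of Gpx1 ran from 0.00248 to 0.276 at G12.5 and from 0.0153 to 0.18 at G14.5.

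Gpx3, the secreted glutathione peroxidase, had a wide gap between its G0 libraries, at 184 and 70.5 CPM. The gestation libraries lay between 126.7 and 292 CPM, the highest pair at G8.5 with 276 and 292 CPM. At G16.5 they lay at 208.5 and 279 CPM, and at G14.5 at 215, 235 and 201 CPM. Every gestation library was above both G0 libraries except G5.5 replicate 2 (126.7 CPM), since the lowest of the others was 185 CPM against 184 CPM in G0 replicate 1. The log2 fold change was 1.16 (SE 0.28, adjusted p = 0.0106) at G8.5 and 0.94 (SE 0.28, adjusted p = 0.0351) at G16.5, and 0.77 (SE 0.26) at G14.5, which was not called (adjusted p = 0.054). Without G0 replicate 2, the lower library, the values were 0.63 (adjusted p = 0.275) and 0.41 (0.517). The G8.5 call also ended without G8.5 replicate 2 (1.11, adjusted p = 0.0613), and that of G16.5 without G16.5 replicate 2 (0.71, 0.299) and in limma on the authors' normalized values (1.07, 0.0723). Over all alternatives the adjusted p ran from 2.23e-11 to 0.275 at G8.5 and from 1.25e-07 to 0.517 at G16.5. Within libraries Gpx3 reads were uneven: the 10% of cells with the most Gpx3 reads held 73.3% of them in G0 replicate 1 and 34.1% in replicate 2, with a median of 54.6% over the 35 libraries. The median cell held 27.1 and 41.8 CPM in the G0 libraries, in the opposite order to the sums, and 69.5 and 72.4 CPM at G8.5. For comparison, the 10% of cells with the most Gpx1 reads held between 19.3% and 31.6% of those reads. For Prdx1, taken in the same way from its own reads, the share was between 17.5% and 27.4%.

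Prdx1, the cytosolic peroxiredoxin, lay at 179 and 158.2 CPM at G0 and was called higher in 5 gestation groups. Its libraries lay at 248 and 233 CPM at G8.5, 239.8 and 223 at G12.5, 239, 241 and 275 at G14.5, 219 and 246 at G16.5, and 231, 227 and 238 at G18.5. No library of these groups overlapped with G0. The log2 fold change ran from 0.46 to 0.58, with the smallest adjusted p at G14.5 (0.58, SE 0.12, adjusted p = 0.0016), followed by G8.5 (0.51, 0.0146), G18.5 (0.46, 0.0186), G16.5 (0.46, 0.0245) and G12.5 (0.46, 0.0348). All 5 calls ended without G0 replicate 2, the lower one, with adjusted p of 0.0571 at G14.5, 0.176 at G8.5, 0.268 at G18.5, 0.231 at G16.5 and 0.286 at G12.5. Some also ended without another library: G8.5 replicate 1 (0.116), G18.5 replicate 3 (0.0643), G16.5 replicate 2 (0.222), and at G12.5 G0 replicate 1 (0.0513), G12.5 replicate 1 (0.211) or G12.5 replicate 2 (0.0904). The log2 fold change was 0.37 or more in each of these refits. In limma, G12.5 (0.117) and G16.5 (0.0562) were not called. The lowest adjusted p over all alternatives was 0.00641 at G12.5, 0.00613 at G16.5, 0.00243 at G18.5, 0.00171 at G8.5 and 2.98e-05 at G14.5.

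Cat, the peroxisomal catalase, was the lowest of the genes, at 1.63 and 0.4998 CPM at G0. At G8.5 it lay at 6.81 and 7.91 CPM and at G14.5 at 2.73, 2.73 and 6.35 CPM, all above both G0 libraries. Its log2 fold change was 2.74 (SE 0.62, adjusted p = 0.00576) at G8.5 and 1.83 (SE 0.57, adjusted p = 0.0346) at G14.5. In the other 7 gestation groups, log2 fold changes of 1.23 to 1.83 were not called. The G8.5 call ended without G0 replicate 2 (2.17, adjusted p = 0.129). At G14.5 it ended without G0 replicate 2 (1.27, adjusted p = 0.329), without G14.5 replicate 3 (1.30, 0.195) and with the replicate block (1.66, 0.0917). The lowest adjusted p over the alternatives was 0.000219 at G8.5 and 0.00949 at G14.5. Cat reads came from few cells: the 10% of cells with the most reads held between 72.2% and 100% of them in the 35 libraries.

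The G8.5 libraries also stood apart in liver genes, which touches the 4 calls of that day, since liver is rich in catalase. Alb (albumin) lay at 174 and 130 CPM at G8.5, against 0.0457 to 15.2 CPM in the other 33 libraries, and Apoa2 at 157.7 and 110.6 CPM against 1.80 to 25.8 CPM. The hepatocyte list without Ttr, which islet cells express, summed to 378 and 275 CPM at G8.5, against 2.74 to 48.2 CPM elsewhere, 5.39 and 7.70 CPM at G0 and 9.48 to 25 CPM at G14.5. C1qa, a gene of macrophages, lay at 111.5 and 95.5 CPM at G8.5 against 26.6 and 54.9 at G0. It did not set G8.5 apart, since it ran from 12.2 to 147.6 CPM over the other 33 libraries. Of the other immune genes, Ptprc and Cd52 were at 0 CPM at G8.5 and Lyz2 at most at 0.081 CPM. The part of liver or immune RNA in the G8.5 values of Cat, Gpx1, Gpx3 and Prdx1 was not tested.

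Gpx4, the lipid peroxide reductase, moved the other way. It lay at 168 and 190.5 CPM at G0, 120.99 and 102.04 CPM at G10.5, and 112.7, 153.7 and 106.3 CPM at G14.5, with no overlap. The log2 fold change was −0.68 (SE 0.17, adjusted p = 0.0219) at G10.5 and −0.53 (SE 0.15, adjusted p = 0.0242) at G14.5. G18.5 libraries at 127.9, 203 and 159.5 CPM overlapped with G0. The G10.5 call ended without G0 replicate 2 (adjusted p = 0.192), G10.5 replicate 1 (0.0697) or G10.5 replicate 2 (0.263), and the G14.5 call without G0 replicate 1 (0.0505), G0 replicate 2 (0.213), G14.5 replicate 1 (0.101) or G14.5 replicate 3 (0.134). Over the alternatives the lowest adjusted p was 0.000736 at G10.5 and 0.00201 at G14.5. A processed pseudogene, Gpx4-ps2, is annotated on chromosome 10, and the sources used here do not say how reads were split between such copies, so Gpx4 levels are uncertain to that extent.

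The dismutases and the remaining genes gave few calls in the time course. Sod1 lay between 232 and 437 CPM (median 321) and Prdx4 between 11 and 27.1 CPM (median 15.6). Txnrd1 had a median of 49.3 CPM, and Nfe2l2 lay between 10.3 and 24.5 CPM (median 17.1). The lowest Nfe2l2 libraries were those of G8.5, at 12.6 and 10.3 CPM against 17.6 and 17 at G0, a log2 fold change of −0.59 (SE 0.23) that was not called (adjusted p = 0.136). Sod2, the mitochondrial dismutase, lay at 174 and 134.2 CPM at G0 and between 98.6 and 158.2 CPM in gestation, and edgeR called no gestation group. DESeq2 called it lower at G5.5, G10.5 and G12.5 and limma at G5.5 and G12.5, where edgeR gave log2 fold changes of −0.46, −0.46 and −0.42 (adjusted p = 0.0902, 0.0675 and 0.0755).

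Other genes of the pathway, from 7 lists, were called in part at G14.5, where 10.1% of all genes were called. Of the other peroxidases and dismutases, 2 of 7 tested rose: Prdx3 (0.61), the mitochondrial peroxiredoxin, and Prdx6 (0.39). In the thioredoxin and glutaredoxin list 4 of 12 rose and 1 fell, with Txnrd2, the mitochondrial thioredoxin reductase, at 53 ± 10.7 CPM (SD, n = 3) against 13.3 ± 3.40 (n = 2), a log2 fold change of 1.98. Txnip (1.47), which binds thioredoxin, and Txn1 (0.66), thioredoxin itself, also rose. Of 15 genes of glutathione supply and use, Gsr (0.91), the glutathione reductase, and Slc7a11, the cystine carrier, rose and Gstm1 (−1.35) fell. Slc7a11 had no read in either G0 library, which allows up to 3 reads in each, and lay at 1.00 ± 1.04 CPM (SD, n = 3) at G14.5. Of 12 Nrf2 partners and targets, Cul3 rose (0.56), of 8 NADPH suppliers Nnt (0.65) and Taldo1 (0.51), of 6 oxidant sources P4hb (0.66), and of 6 selenoprotein synthesis genes 0 were called by edgeR. The median log2 fold change was 0.39, 0.30, 0.27, 0.01, 0.10, 0.50 and −0.04 in these 7 lists, beside 0.01 over all genes tested.

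After delivery, Gpx1 was higher than at G0 in all 3 L groups. It lay at 109.6 and 158.3 CPM in P2L, 125.1 and 129.2 in P7L, and 98.8 and 114.2 in P14L replicates 1 and 2, with replicate 3 above both, and with no overlap with G0, and its log2 fold changes were 0.77 (adjusted p = 0.0046), 0.70 (0.00841) and 0.60 (0.0164). Gpx3 lay at 241 and 304 CPM in P7L, the second of these its highest library of the time course (log2 1.1, SE 0.28, adjusted p = 0.0211). Sod2 fell in P14L, to 104.01, 120.5 and 105.4 CPM, with a log2 value of −0.49 ± 0.13 (SE, adjusted p = 0.0237). These were 1, 2 and 2 of 10 genes called in P2L, P7L and P14L, against 2.61%, 3.35% and 3.43% of all genes. In P2NL, P7NL and P14NL, edgeR called 0 of 10 against G0, where 0.572%, 0.462% and 0.28% of all genes were called. There 2, 3 and 3 of the 10 had an unadjusted p under 0.05, beside 1636, 1763 and 1533 of all 15373 genes. For these groups limma called 0, and DESeq2 called Gpx4 in P14NL only. In P14L DESeq2 also called Cat.

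All 5 of these calls ended without at least 1 library. For Gpx1 in P2L these were G0 replicate 2 (adjusted p = 0.0612) and P2L replicate 2 (0.48, adjusted p = 0.37). In P7L the call of Gpx1 ended without any of its 4 libraries, at 0.0599 and 0.0874 without G0 replicates 1 and 2 and at 0.0565 and 0.0833 without P7L replicates 1 and 2. In P14L it ended without G0 replicate 1 (0.0806), G0 replicate 2 (0.174) or P14L replicate 3 (0.12). Gpx3 in P7L ended without G0 replicate 2 (0.57, adjusted p = 0.428), P7L replicate 1 (0.0501) or P7L replicate 2 (0.237), and in limma (0.0515). Sod2 in P14L ended without G0 replicate 1 (−0.29, adjusted p = 0.355), P14L replicate 1 (0.0945) or P14L replicate 3 (0.0814). The lowest adjusted p over the alternatives was 0.00011, 0.000571 and 0.00259 for Gpx1 in P2L, P7L and P14L, 1.92e-10 for Gpx3 and 0.00247 for Sod2.

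Compared with each other on the same day, L and NL groups differed in Gpx3 and Gpx1. At day 7, Gpx3 lay at 241 and 304 CPM in P7L and at 121.6 and 110.4 CPM in P7NL, a log2 difference of 1.23 (SE 0.28, adjusted p = 0.0194). At day 14 it lay at 246.5, 153.8 and 239 CPM in P14L and at 88.9 and 86.9 CPM in P14NL, a difference of 1.28 (SE 0.26, adjusted p = 0.0087). Gpx1 at day 14 lay at 98.8 and 114.2 CPM in P14L replicates 1 and 2, higher still in replicate 3, and at 67.2 and 75.8 CPM in P14NL, a difference of 0.73 (SE 0.15, adjusted p = 0.00765). None of these groups overlapped. At day 2, edgeR, DESeq2 and limma each called 0 of 10, with 0 at an unadjusted p under 0.05 as well, beside 755 of all 15373 genes. The shares of all genes called between L and NL were 0.124%, 0.839% and 0.722% at days 2, 7 and 14, so that 1 and 2 of 10 genes stood against under 1% of all genes at days 7 and 14. Cat lay at 3.64 and 2.26 CPM in P7L against 1.55 and 0.465 in P7NL (not called, adjusted p = 0.445). The median cell held 98.6 and 106.1 CPM of Gpx3 in P7L and 47.1 and 27.9 CPM in P7NL. C1qa, the main contributor to the immune marker list, lay at 141.1 and 147.6 CPM in P7L against 54.8 and 53.3 in P7NL, and at 77.9, 68.4 and 111.9 in P14L against 12.2 and 38 in P14NL, while Ptprc reached at most 0.228 CPM, Lyz2 0.92 and Cd52 0.512 in the time course. Its part in these differences was not tested.

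The Gpx3 difference at day 7 ended without P7L replicate 2 (adjusted p = 0.3), P7NL replicate 1 (0.147) or P7NL replicate 2 (0.325), and in limma (0.2), and at day 14 without P14NL replicate 1 (0.167) or replicate 2 (0.137) and in limma (0.129). Its log2 value stayed between 1.06 and 1.46 over these and all other alternatives. The Gpx1 difference ended without P14L replicate 3 (0.0799), P14NL replicate 1 (0.3) or P14NL replicate 2 (0.0572), at log2 values of 0.57 to 0.84 over all alternatives. Over the alternatives the lowest adjusted p was 5.63e-13 and 9.71e-16 for Gpx3 at days 7 and 14 and 8.65e-05 for Gpx1. Of the other pathway genes only Txnrd2 was called between P14L and P14NL, at 37.8 ± 3.98 CPM (SD, n = 3) against 15 ± 3.98 (n = 2), a difference of 1.34.

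**Figure D2:**
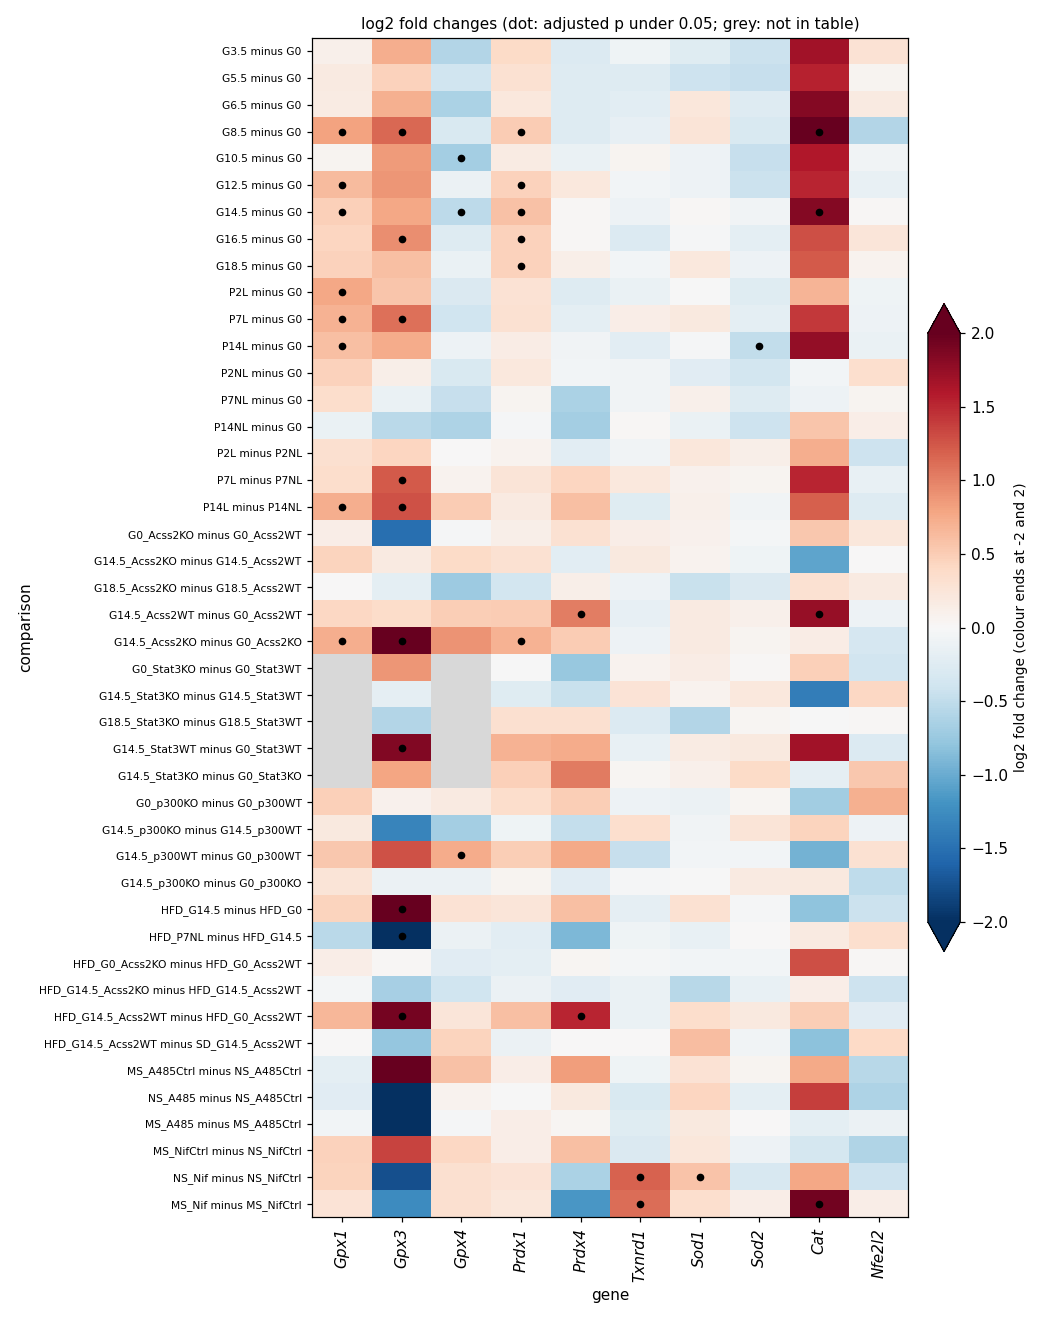
Log2 fold change of each gene (columns) in each of 44 comparisons (rows), with colour ending at −2 and 2, a dot where the adjusted p was under 0.05 and grey where the table does not list the gene. Dots gather in Gpx1, Gpx3 and Prdx1 in the rows of the time course, and in Txnrd1 in the rows of nifuroxazide.

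The genes whose levels followed each member most closely were taken over the 35 libraries of the time course, among 7198 genes with a mean of at least 10 CPM, by Pearson's r of log2 CPM, as a description of libraries that share G0 and depth. For Gpx3 these were Chgb (0.727), a secretory granule protein, Prlr (0.725), the prolactin receptor, and Fam159b (0.722). Prdx1 was followed by Sep15 (0.869), Hint1 (0.852) and Slc25a5 (0.844), and Gpx1 by Cox6a1 (0.762), a subunit of cytochrome c oxidase, Tspan14 (0.757) and Ntrk2 (0.747). For Cat, Rph3al (0.679) and Snrnp35 (0.67) came before Gpx3 (0.662). The nearest gene was Gm9843 for Gpx4 (0.858), Sf3b6 for Sod2 (0.757), Nipal3 for Sod1 (0.757), Eef1b2 for Prdx4 (0.706), Nckap1 for Nfe2l2 (0.627) and Casc3 for Txnrd1 (0.62).

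The step from G0 to G14.5 was sampled again in the wild-type and knockout mice. In Acss2WT mice, 2 of 10 genes rose, against 2.92% of all 14057 genes: Prdx4 from 10.2 and 12.7 CPM to 24.4 and 22 CPM (log2 1.02, SE 0.20, adjusted p = 0.0078), and Cat from 2.43 and 1.80 to 4.92 and 9.26 CPM (1.74, SE 0.45, adjusted p = 0.0457). In Acss2KO mice, 3 of 10 rose, against 4.35%: Gpx1 from 91.4 and 76.5 to 148.6 and 127.97 CPM (0.72, adjusted p = 0.0196), Gpx3 from 45.7 and 65.7 to 261 and 204 CPM (2.06, SE 0.39, adjusted p = 0.00506) and Prdx1 from 162 and 157.4 to 259 and 257 CPM (0.69, adjusted p = 0.0132). No pair of groups named here overlapped. Prdx1 in Acss2WT mice, at 137.2 and 155.5 CPM and then 221 and 196, was not called by edgeR (0.51, adjusted p = 0.0859) but by DESeq2 and limma. Other cells' genes moved with some of these values. G14.5_Acss2WT replicate 2, the library with Cat at 9.26 CPM, had the hepatocyte list without Ttr at 520.1 CPM (Alb 232, Apoa2 205), against 4.42 to 39.7 CPM in the other 11 libraries of the table. C1qa lay at 125.6 and 141.6 CPM in G14.5_Acss2KO against 42.03 and 36.2 in G0_Acss2KO, beside the rise of Gpx3 there. It also lay at 126.5 and 121.4 CPM in G14.5_Acss2WT against 47.9 and 47.4 in G0_Acss2WT, where Gpx3 was not called. Ptprc, Lyz2 and Cd52 were at 0 CPM in G14.5_Acss2KO. The part of liver genes or C1qa in these values was not tested. The interaction of genotype with stage called 0 of 10 in edgeR, DESeq2 and limma, against 0.0213% of all genes by edgeR. Of the 10, 2 (Gpx3 and Cat) had an unadjusted p under 0.05, beside 855 of all 14057. The change in knockouts minus that in wild types was 1.69 (SE 0.53, adjusted p = 0.755) for Gpx3 and −1.59 (SE 0.62, adjusted p = 0.776) for Cat, so neither was shown to differ by genotype in this edgeR fit. Without the filter on low counts, edgeR called Gpx3 in this interaction.

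Of the Acss2WT calls, Prdx4 ended without G0_Acss2WT replicate 1 (adjusted p = 0.168) or G14.5_Acss2WT replicate 1 (0.0516), and Cat without G0_Acss2WT replicate 1 (0.201) or replicate 2 (0.273), without G14.5_Acss2WT replicate 2 (1.22, adjusted p = 0.262) and with the replicate block (0.0604). In Acss2KO mice, Gpx3 ended without G0_Acss2KO replicate 1 (1.82, adjusted p = 0.0789) or G14.5_Acss2KO replicate 1 (1.86, 0.0672). The calls of Gpx1 and Prdx1 ended without any 1 of the 4 libraries, with adjusted p of 0.0548, 0.251, 0.206 and 0.0641 for Gpx1 and 0.0907, 0.148, 0.116 and 0.107 for Prdx1, in the order G0 replicates 1 and 2, then G14.5 replicates 1 and 2. The lowest adjusted p over the alternatives was 0.000147 for Prdx4, 0.0045 for Cat, 3.03e-27 for Gpx3, 0.000462 for Gpx1 and 3.67e-05 for Prdx1.

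Between Acss2KO and Acss2WT mice at the same stage, edgeR called 0 of 10 genes at G0, G14.5 and G18.5, against 0.00711%, 0.0213% and 0.149% of all genes. At an unadjusted p under 0.05 there were 1, 2 and 3 of the 10 genes, beside 375, 1472 and 1536 of all 14057. DESeq2 called Sod1 at G18.5 only, and limma called 0. Gpx3 at G0, at 45.7 and 65.7 CPM in knockouts and 92.4 and 224 in wild types, did not overlap, but the log2 difference of −1.51 (SE 0.38) was not called (adjusted p = 1). Sod1 at G18.5 lay at 236 and 277 CPM in knockouts and 337 and 361 in wild types (−0.45, SE 0.15, adjusted p = 0.28).

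In the Stat3 table, 1 of 8 genes rose from G0 to G14.5 in wild types, against 1.74% of 10207 genes. Gpx3 went from 107.8 and 48.4 CPM to 267 and 299.8 CPM (1.86, SE 0.42, adjusted p = 0.0309). The call ended without G0_Stat3WT replicate 2 (1.39, adjusted p = 0.307), G14.5_Stat3WT replicate 1 (0.094) or replicate 2 (0.159), and the lowest adjusted p over the alternatives was 2.55e-16. In Stat3KO mice Gpx3 lay at 102.5 and 185 CPM, then 166 and 334 CPM, and overlapped (0.80, SE 0.41, adjusted p = 0.408). Beside the wild-type call, G14.5_Stat3WT replicate 2 had liver genes at 486 CPM (Alb 244.8, Apoa2 232.8), against 3.92 to 74.3 CPM in the other 11 libraries. C1qa lay at 150.7 and 98.6 CPM in G14.5_Stat3WT against 38.3 and 41.04 in G0_Stat3WT. In G14.5_Stat3WT Ptprc was at 0 CPM and Cd52 at most at 0.0195 CPM. The part of liver genes or C1qa in the Gpx3 value was not tested. For the knockouts, edgeR and DESeq2 called 0 of 8, against 1.7% of all genes by edgeR. Of the 8, 4 had an unadjusted p under 0.05, beside 1414 of all 10207. The interaction called 0 of 8 by both tools, against 0% of all genes by edgeR. In it 2 genes (Cat and Nfe2l2) had an unadjusted p under 0.05, beside 809 of all 10207. Without the filter on low counts, edgeR called Gpx3 in the interaction and between genotypes at G0. Knockout against wild type gave 0 of 8 by both tools at G0, G14.5 and G18.5, against 0%, 0.0098% and 0.0196% of all genes by edgeR. At an unadjusted p under 0.05 there were 2, 1 and 1 of the 8, beside 830, 875 and 507 of all 10207. Prdx1 in Stat3WT mice lay at 166 and 158.9 CPM, then 256 and 271 CPM, without overlap (0.70, SE 0.17, adjusted p = 0.0563), and DESeq2 called it.

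In the p300 table, 1 of 10 genes rose from G0 to G14.5 in wild types, against 2.15% of 13475 genes. Gpx4 went from 96.9 and 105.8 CPM to 189.8 and 150.02 CPM (0.75, SE 0.17, adjusted p = 0.0419), opposite in sign to the time course. In that comparison 6 of the 10 genes had an unadjusted p under 0.05, beside 2383 of all 13475, and DESeq2 called 3 (Gpx1, Gpx4 and Prdx1). The edgeR call of Gpx4 ended without G0_p300WT replicate 1 (0.172), G0_p300WT replicate 2 (0.057) or G14.5_p300WT replicate 1 (0.56, adjusted p = 0.23), and with the replicate block (0.0572), and the lowest adjusted p over the alternatives was 0.000759. In p300KO mice Gpx4 lay at 105.5 and 123.6, then 104.4 and 107.01 CPM. There 0 of 10 genes were called by edgeR or DESeq2, against 3.27% of all genes by edgeR. At an unadjusted p under 0.05 there were 0 of 10, beside 2306 of all 13475. For Gpx4 the interaction was −0.86 (SE 0.24, adjusted p = 0.289). In it edgeR called 0 of 10, against 0.0668% of all genes. There 3 of the 10 had an unadjusted p under 0.05, beside 1399 of all 13475, and of these 3 DESeq2 called Gpx4. Without the filter on low counts, edgeR called Gpx3 in this interaction. Between knockouts and wild types edgeR called 0 of 10 at G0 and G14.5, against 1.54% and 0% of all genes. At each stage 2 of the 10 had an unadjusted p under 0.05, beside 2286 and 1333 of all 13475. DESeq2 called Gpx4 at G14.5 (−0.68 in edgeR, adjusted p = 0.157). Gpx3 in p300WT mice lay at 85.9 and 75.2 CPM at G0 and 281 and 109.6 CPM at G14.5 (1.28, SE 0.52, adjusted p = 0.222), and in p300KO mice at 127.8 and 42.5, then 113.6 and 43.5 CPM.

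**Figure D3:**
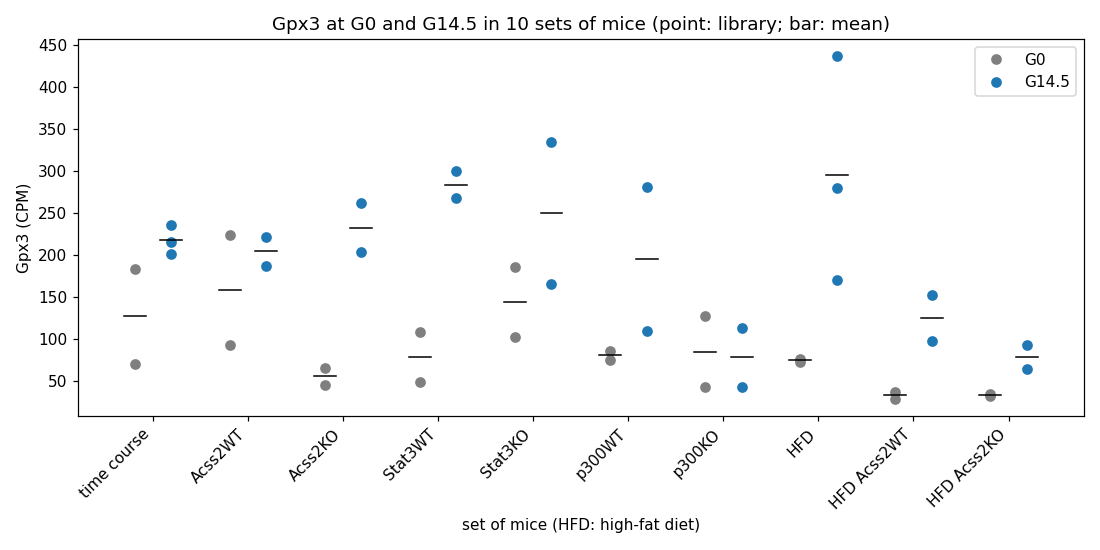
Gpx3 level (CPM) at G0 (grey) and G14.5 (blue) in 10 sets of mice. Points are libraries and bars are means, and each of the 5 tables was scaled on its own. The Acss2KO, Stat3WT and both tested HFD sets (HFD, HFD Acss2WT) were called higher at G14.5, and the G0 libraries of the time course lie at 184 and 70.5 CPM.

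On high-fat diet Gpx3 was called in 3 comparisons. It lay at 76.2 and 73 CPM in HFD_G0, at 170, 279 and 436 CPM in HFD_G14.5, and at 56.4 and 32.7 CPM in HFD_P7NL. All HFD_G14.5 libraries were above those of HFD_G0 and HFD_P7NL. The log2 fold change was 1.98 (SE 0.36, adjusted p = 0.00732) from G0 to G14.5 and −2.73 (SE 0.37, adjusted p = 0.000686) from G14.5 to P7NL, and in each edgeR called 1 of 10 genes, against 1.95% and 1.32% of all 14115 genes. Prdx4 lay at 23.7, 21.1 and 20.02 CPM in HFD_G14.5 and 12.4 and 10.8 in HFD_P7NL (−0.90, SE 0.26, adjusted p = 0.102), and DESeq2, limma and the fit without a filter called it. Markers of other cells moved with Gpx3: Gcg, the alpha cell hormone, lay at 1207 and 1684 CPM in HFD_G0, 2046 to 7332 CPM in HFD_G14.5 and 97.3 and 88.7 CPM in HFD_P7NL. C1qa lay at 70.5 and 46.8, then 121.2 to 142.8, then 20.2 and 49.2 CPM. Ptprc reached at most 0.58 CPM in HFD_G14.5, where Lyz2 and Cd52 were at 0. The fall of Gpx3 was also called without cells rich in other hormones. That filter left 58 of 59, 77 of 81 and 50 of 53 cells in HFD_G14.5, and Gcg levels after it are not given here. The part of Gcg or C1qa in the Gpx3 values was not tested. The fall to P7NL held under each of 7 settings and without each of 5 libraries, with adjusted p up to 0.0425, while the rise ended without HFD_G0 replicate 1 (0.0649) or replicate 2 (0.192). In HFD Acss2WT mice, 2 of 10 rose from G0 to G14.5, against 1.93%: Gpx3 from 29.1 and 36.8 to 97.8 and 151.9 CPM (1.92, SE 0.37, adjusted p = 0.00933) and Prdx4 from 9.21 and 4.87 to 18.4 and 22 CPM (1.52, SE 0.28, adjusted p = 0.00711). Gpx3 there ended without HFD_G0_Acss2WT replicate 1 (0.095) or HFD_G14.5_Acss2WT replicate 2 (0.114), and Prdx4 without HFD_G0_Acss2WT replicate 2 (0.07) or HFD_G14.5_Acss2WT replicate 2 (0.0724). In these HFD Acss2WT mice C1qa lay at 24.3 and 74.9 CPM at G0 and 90.6 and 83.9 CPM at G14.5. Sst, the delta cell hormone, lay at 209.8 and 194.3, then 1094 and 126.7 CPM. The part of C1qa or Sst in the Gpx3 and Prdx4 values was not tested. Over the alternatives the lowest adjusted p was 1.42e-22 for the rise of Gpx3 in HFD mice, 5.34e-19 for that in HFD Acss2WT mice and 6.24e-05 for Prdx4. Gpx3 in HFD Acss2KO mice lay at 32.3 and 34.9, then 64.1 and 93 CPM.

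Knockout against wild type on this diet gave 0 of 10 by edgeR, DESeq2 and limma at G0 and G14.5, against 0% and 0.0638% of all genes by edgeR. At an unadjusted p under 0.05 there were 0 and 1 of the 10, beside 1094 and 1195 of all 14115. The interaction of Acss2 genotype with stage also gave 0 by edgeR, DESeq2 and limma, against 0.0142% of all genes by edgeR. It had 0 of 10 at an unadjusted p under 0.05, beside 1088 of all 14115. Acss2WT mice at G14.5 on high-fat against standard diet gave 0 of 10 by edgeR and limma, against 0.213% of all genes by edgeR. Here 3 of the 10 had an unadjusted p under 0.05, beside 1733 of all 14115, and of these 3 DESeq2 called Sod1. Sod1 lay at 438 and 459.5 CPM on high-fat diet and 292 and 294 CPM on standard diet, without overlap (0.62, SE 0.19, adjusted p = 0.173).

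In islet cultures with nifuroxazide, Txnrd1 rose in both sera, from 104.5 and 128.8 CPM to 274 and 255 CPM in NS (log2 1.18, SE 0.16, adjusted p = 0.00165), and from 91.1 and 99.6 to 213 and 203 CPM in MS (1.12, SE 0.16, adjusted p = 0.00431). In both, all treated libraries were above the vehicle libraries. In NS medium Sod1 also rose, from 443 and 495 to 687 and 711 CPM (0.58, SE 0.13, adjusted p = 0.0428), and in MS medium Cat rose from 8.5 and 5.69 to 28.4 and 25.6 CPM (1.93, SE 0.38, adjusted p = 0.032). That made 2 of 10 genes in each serum, against 1.99% of 13481 genes in NS and 0.697% in MS. Prdx4 lay lower without overlap, at 28.9 and 34.2, then 12.4 and 15.8 CPM in MS (−1.16, SE 0.33, adjusted p = 0.176), where DESeq2 called it. In NS it lay at 23.7 and 17.8, then 17.2 and 9.52 CPM (−0.64, SE 0.33, adjusted p = 0.391). Liver genes summed to between 257 and 334 CPM in all 8 libraries, at 328 and 262 CPM with vehicle and 282.5 and 265.6 with nifuroxazide in MS. Nfe2l2 itself lay at 48.5 and 35.7 CPM with vehicle and 28.1 and 34.9 CPM with nifuroxazide in NS (−0.42, SE 0.26, adjusted p = 0.482), and at 31.3 and 24.3, then 26.2 and 34.9 CPM in MS (0.14, SE 0.26, adjusted p = 0.951). Its groups overlapped in MS. The β markers summed to 552200 and 539100 CPM with vehicle and 431400 and 429400 CPM with nifuroxazide in NS, and to 517100 and 425200, then 451500 and 384300 CPM in MS, and Ins1 was called lower in NS (−0.87). The part of this in the values above was not tested. For Txnrd1 the median cell went from 93 and 104.5 CPM to 265 and 205 CPM in NS, and from 74.1 and 96.4 to 177 and 196 CPM in MS.

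Txnrd1 in NS held under 7 settings and without each of 4 libraries, with adjusted p up to 0.0369, and in MS it ended only without MS_Nif replicate 1 (1.08, adjusted p = 0.0619). Sod1 in NS ended without any 1 of its 4 libraries, with adjusted p of 0.116 and 0.145 for NS_Nif replicates 1 and 2 and 0.286 and 0.127 for NS_NifCtrl replicates 1 and 2, and in limma (0.0584). Cat in MS likewise ended without MS_Nif replicate 1 (0.217) or 2 (0.165), without MS_NifCtrl replicate 1 (0.0656) or 2 (0.246), and in limma (1.48, adjusted p = 0.13). The lowest adjusted p over the alternatives was 1.07e-09 for Txnrd1 in MS, 0.000134 for Sod1 and 9.89e-05 for Cat. Cat in NS lay at 8.0 and 10.07 CPM with vehicle and 19.9 and 10.9 CPM with nifuroxazide (0.77, adjusted p = 0.348). The difference of Cat between sera was 1.16 (SE 0.52, adjusted p = 0.732). For Txnrd1 it was −0.06 (SE 0.23, adjusted p = 1).

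Other genes of the same defence moved with nifuroxazide, named after their values were seen. Of 12 Nrf2 partners and targets, 5 rose and 0 fell in NS, where 1.99% of all genes were called, and 3 rose and 0 fell in MS, where 0.697% were. The ferritin light chain Ftl1 went from 566 and 626 CPM to 2771 and 3201 CPM in NS (2.33) and from 672 and 770 to 2451 and 2446 CPM in MS (1.76). Sqstm1, an autophagy receptor, rose in both (1.49 and 1.37). Hmox1, heme oxygenase, went from 16.2 and 19.7 to 214 and 218 CPM in NS (3.59, adjusted p = 0.0124), while in MS its vehicle libraries lay at 10.8 and 95 CPM and its treated ones at 108.1 and 140.1 CPM, not called (adjusted p = 0.537). Nqo1 (2.20) and the ferritin heavy chain Fth1 (0.89) rose in NS, and the Nrf2 partner Mafg (0.86) in MS. Of 15 genes of glutathione supply and use, 4 rose in each serum and 0 fell. Gstp1, a glutathione transferase, went from 135.2 and 112.8 to 725 and 968 CPM in NS (2.77) and from 100.4 and 106.8 to 488 and 589 CPM in MS (2.38). Gstm1 (1.74 and 2.68) and Gclc (1.35 and 1.33), a subunit of the enzyme that starts glutathione synthesis, rose in both, Gsr (0.86) in NS and Gclm (1.20), the other subunit of that enzyme, in MS. Txnip fell in both sera, by 3.44 and 1.63 on the log2 scale. The peroxidase Gpx2 rose in MS (1.36), with 1 of 7 of its list called there and 0 of 7 by edgeR in NS. No gene of NADPH supply (8 tested) or selenoprotein synthesis (6 tested) was called by edgeR in either serum, and of 5 oxidant sources Ero1lb fell in NS. The median log2 fold change of the Nrf2 list was 0.75 in NS and 0.83 in MS, and of the glutathione list 0.34 and 0.55, beside −0.02 and −0.01 over all genes tested.

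**Figure D4:**
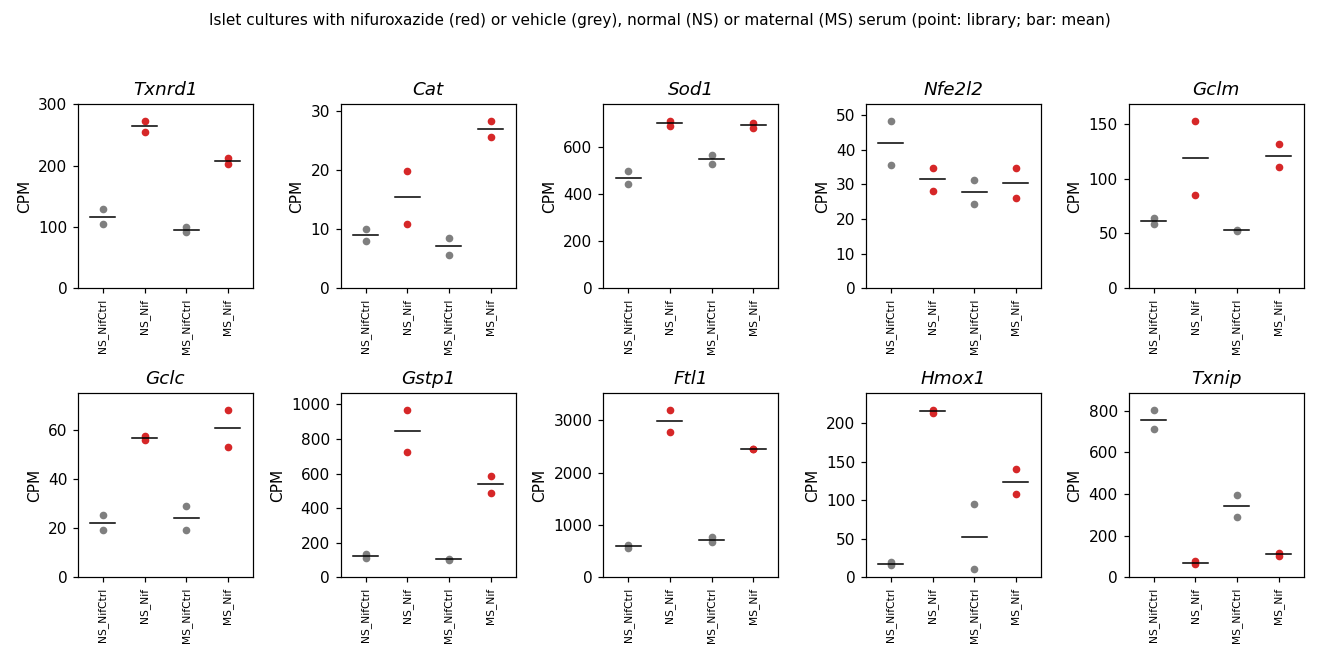
Levels (CPM) of 10 genes in islet cultures with nifuroxazide (red) or vehicle (grey), in normal or maternal serum, on linear axes from 0. Points are the 2 libraries of a group and bars are means. Txnrd1, Gstp1 and Ftl1 lie above vehicle in both sera, Txnip lies below, and the Nfe2l2 groups lie between 24.3 and 48.5 CPM.

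With A485 none of the genes were called by edgeR with the filter on low counts. In edgeR 0 of 10 were called in NS and in MS, against 2.57% and 3.3% of 13554 genes. At an unadjusted p under 0.05 there were 4 and 1 of the 10, beside 2360 and 2413 of all 13554. DESeq2 called Sod1 in NS and none in MS, and limma called Sod1 in NS and Gpx3 in MS. The fit without a filter called Gpx3 in both sera. Gpx3 had the largest differences, at 68.8 and 28.3 CPM with vehicle and 17.9 and 3.38 CPM with A485 in NS (−2.15, SE 0.79, adjusted p = 0.179). In MS it lay at 119.8 and 361 CPM with vehicle and 10.3 and 42.9 CPM with A485 (−3.18, SE 0.79, adjusted p = 0.052). The groups did not overlap in either serum. With nifuroxazide, Gpx3 lay at 22.5 and 92.3, then 21.2 and 12.7 CPM in NS (−1.76, SE 0.54, adjusted p = 0.127) and at 96.5 and 197, then 79.7 and 42.8 CPM in MS (−1.26, SE 0.52, adjusted p = 0.437). Sod1 with A485 lay at 336 and 414.5, then 504 and 505 CPM in NS (0.43, SE 0.15, adjusted p = 0.152). Txnrd1 with A485 lay at 88.5 and 96.7, then 75.5 and 74.8 CPM in NS (−0.30, SE 0.13, adjusted p = 0.273). The interaction of serum with A485 gave 0 of 10 by edgeR, DESeq2 and limma, against 0.00738% of all genes by edgeR. It had 0 of 10 at an unadjusted p under 0.05, beside 633 of all 13554. The fit without a filter called Gpx3 in that interaction. The interaction of serum with nifuroxazide gave 0 of 10 by edgeR, DESeq2 and limma and without a filter, against 0% of all genes. In it 1 gene (Cat) had an unadjusted p under 0.05, beside 886 of all 13481.

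Maternal against normal serum with vehicle gave 0 of 10 by edgeR in both culture sets, against 0.657% of all genes in the A485 set and 1.02% in the nifuroxazide set. In each set 4 of the 10 had an unadjusted p under 0.05, beside 1632 of all 13554 genes in the A485 set and 1303 of all 13481 in the nifuroxazide set. For these comparisons limma called 0, and DESeq2 called Gpx4 in the A485 set and 0 in the other. The fit without a filter called Gpx3 in both sets, and also Gpx4 and Prdx4 in the A485 set. Gpx3 lay at 119.8 and 361 CPM in MS against 68.8 and 28.3 in NS (2.32, SE 0.77, adjusted p = 0.251), and at 96.5 and 197 against 22.5 and 92.3 CPM in the nifuroxazide set (1.36, SE 0.52, adjusted p = 0.386). Both pairs were without overlap. Gpx4 in the A485 set lay at 213.5 and 223 CPM in MS against 129.6 and 159.6 in NS (0.59, SE 0.14, adjusted p = 0.112). Nfe2l2 lay at 30.6 and 26.4 against 41.9 and 41.8 CPM in the A485 set (−0.55, SE 0.22, adjusted p = 0.339).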

How the data were processed

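Smart-seq3xpress libraries of 7897 sorted cells were used, and the 2 islet droplet samples were not analysed here. The deposited read counts per gene and cell were made by the authors with Trimmomatic 0.39 and featureCounts 2.0.1 on GRCm38 (mm10), per the submitters' processing notes, and the sources used here name neither aligner nor annotation. The deposited normalized signal per cell, which entered the per-length levels and limma, sums to 100000 outside the insulin genes in 3 tables, while cells of the A485 cultures sum to 74539.8 to 139172.5 and those with nifuroxazide to 75872.2 to 154237.6.

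Cells are not replicates, so counts were added up by group and replicate (Python 3.11.15, pandas 2.3.3, numpy 2.4.6). Each of 7 tables was fitted once with edgeR 4.0.16 (R 4.3.3): filterByExpr, TMM, the quasi-likelihood test, 2-sided, and Benjamini-Hochberg adjustment over all genes within a comparison, called under 0.05. SE is the absolute log2 fold change over the square root of F. A gene row with missing values, 1 each in the Stat3 and p300 tables, was dropped. The fit was tested on simulated data.

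Alternatives were RLE size factors, DESeq2 1.42.0, limma 3.58.1 on log2 of the mean deposited normalized value plus 0.1, no filter, a replicate block, no insulin reads, no cells with over 5% other hormone reads, and leaving out each library. All 10 genes were to be described in every comparison. Pathway genes were to be named where called at G14.5 against G0, at most 3 per list. The lists are other peroxidases and dismutases, thioredoxin and glutaredoxin, glutathione, Nrf2 partners and targets, NADPH supply, selenoprotein synthesis and oxidant sources. Members, lists and tests were chosen with earlier results of these data known. Promoter sequences are from RefSeq (GRCm38.p6), which held all 10 genes.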

Additional observations from a re-analysis of the deposited data

Results flagged for a closer look

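In 2 genes the G14.5 libraries lay wholly above those of G0 in some sets of mice and wholly below them in others. Most of these groups hold 2 libraries, and the share of all genes that do the same was not counted. Gpx4 was higher by 0.50 on the log2 scale in Acss2WT mice (not called) and by 0.75 in p300WT mice, and lower in the time course (−0.53). Cat was higher by 1.83 in the time course and by 1.74 in Acss2WT mice, where the library with the higher Cat level at G14.5 also had liver genes at 520.1 CPM against 11.6 CPM in the other one, and its values were −0.95 in p300WT mice and −0.80 in HFD mice, neither called. These sets were fitted in separate tables, the difference between them was not tested, and they were set side by side after their values were seen.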

How the results depend on the processing

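The number of calls among the 10 genes was 22 in the time course, 5 in the Acss2 table, 1 in Stat3, 1 in p300, 4 in high-fat diet, 0 in the A485 cultures and 4 in the nifuroxazide cultures, 37 in all. Without the filter on low counts it was 37, 8, 5, 4, 8, 5 and 8. The shares of all genes called by edgeR stand beside each comparison above, and those under the other settings are not given here. Outside these counts, that fit also called Gpx3 in the interactions of Acss2, Stat3 and p300 genotype with stage on standard diet, and of serum with A485. For the other settings, numbers are given only for the larger relative moves. DESeq2 gave 2 in Stat3, 4 in p300 and 2 in A485, and more calls than edgeR in each of the other tables as well. Calls by limma were 2 in A485 and 2 in nifuroxazide, fewer than by edgeR in the time course and more in the Acss2 and high-fat diet tables. Removing cells rich in other hormones gave 1 in A485. Replicate numbers showed no pairing of samples. The difference of replicate 1 minus replicate 2 in log2 CPM, over genes, correlated between groups at r from −0.144 to 0.143. The replicate block gave 0 in p300 and 2 in A485. Leaving out 1 library at a time gave 7 to 25, 1 to 6, 0 to 2, 0 to 1, 2 to 5, 0 to 1 and 1 to 3 calls in the order of the tables above. The cause of these differences was not tested. In these refits the genes tested and the dispersion trend of the full fit were kept, and a library left alone in its group was assumed to vary like the other groups. Of 37 calls, 25 held under every setting other than leaving out a library, and 3 also held without each library in turn: Gpx1 at G8.5, Gpx3 from HFD_G14.5 to HFD_P7NL and Txnrd1 with nifuroxazide in NS. No called value changed sign over 5562 alternative values. limma was not run for the Stat3 and p300 tables. With mostly 2 libraries a group, the number of libraries limits the precision, and so do the few reads of Cat.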
